A study of Homo sapiens with 12 samples.

Results

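Mitosis divides a replicated genome between daughter cells, and the 50 genes described here encode the proteins that carry it out. They were chosen by symbol, from a list that spans entry into mitosis, chromosome condensation, attachment to the spindle, separation and cytokinesis, with no cut on their values. All 50 matched a row of the count table, which holds 36601 Ensembl gene IDs, and all 50 were among the 20183 genes with enough reads to test. The samples are 12 bulk RNA libraries from H9, an established human embryonic stem cell line labelled wild type and kept on mouse embryonic fibroblast feeders before differentiation. All 12 carry the labels "cytokine-induced" and a common batch, and they fall into 3 libraries each at days 10, 15, 20 and 25. The labels name day 10 haematopoietic progenitors, days 15 and 20 T progenitors, and day 25 mature γδ T cells.

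All cells passed through the same earlier steps: CHIR99021, BMP4, Activin A and the ROCK inhibitor Y-27632 in STEMdiff APEL2 medium, then VEGF, then VEGF with bFGF, then VEGF, bFGF, Flt3L, IL-7, SCF and SB431542. From day 10 they were kept in MEM-α with FBS, GlutaMAX, a supplement labelled MAP, SCF, IL-7, Flt3L and DLL4, a ligand of Notch. The day of sampling is the only factor the labels set between groups, and between day 10 and the later days it cannot be told apart from the change of medium. The comparison asks how the RNA of the division machinery changed from one day to the next. Whether the 3 libraries of a day came from separate cultures is not stated, so p-values here speak for the spread of these libraries alone, and part or all of it may be technical.

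In a dividing cell these genes act in sequence. CDK1 with its cyclins starts mitosis, condensins and topoisomerase II compact and untangle the chromosomes, and the kinetochore, built on the centromere, grips spindle microtubules. The spindle checkpoint holds back the anaphase-promoting complex until every chromosome is attached. Its activator CDC20 then triggers destruction of securin and cyclin B, separase cuts cohesin, and a contractile ring divides the cell. Most of these genes are transcribed late in the cycle and kept off in resting cells by the DREAM complex. Their promoters are known for CCAAT boxes, bound by NF-Y, and for a short cell cycle homology region with the core TTTGAA or TTTAAA, to which LIN54 of the DREAM and MYB-MuvB complexes binds. Blood progenitors that divide quickly hold much of this RNA, and most mature blood cells hold little.

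The promoters of the members shared these short sequences. RefSeq start sites on GRCh38.p14 were available for 44 of the 50 members and gave 50 windows, each from 250 bases before to 50 bases after a start. PBK, AURKA, TPX2, BIRC5, UBE2C and TTK were not matched. Motifs were searched on either strand. CCAAT was present in 74.0% of the 50 member windows and in 34.6% of all 35116 windows in the table. TTTGAA was present in 72.0% of member windows and 15.2% of all windows, and TTTAAA, which is its own reverse complement, in 30.0% and 12.2%. Either of these last motifs was found in 86.0% of member windows against 24.0% of all. CCAAT together with either was found in 64.0% against 9.27%. The E2F-type motif TTTGGCGC was rare in both (4.0% and 0.652%), as was TTTCCCGC (2.0% and 1.63%). These shares are a description of letters in a window, with no test, and show no binding.

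Of 78 CCAAT matches in member windows, 65 (83.3%) lay within the 150 bases before the start, against 62.7% of the 17602 matches in all windows. For TTTGAA it was 31 of 49 (63.3%), against 46.7% of 6238. These are counts per window, and sites in the overlapping windows of AURKB, CDK1, ECT2 and PTTG1 count more than once. CCNB2, a B-type cyclin, held 4 CCAAT matches, at -244, -120, -87 and -54. Where a member window held more than 1 CCAAT on the same strand before the start, neighbouring matches on that strand were 27 to 144 bases apart. Of these 32 spacings, 7 were 32 or 33 bases, the most frequent pair of adjacent lengths, picked from these values. Matches on opposite strands were left out of these spacings and could lie closer, as at -69 and -66 in HMMR. The windows of AURKB, BUB1, CCNA2 and SPC24 held neither TTTGAA nor TTTAAA.

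The next 8 sequences are stretches just before the start, printed 5′ to 3′ on the strand of the gene, with matches to the motifs of either strand in capitals. A match on the opposite strand is printed as it reads on the strand of the gene, so that CCAAT becomes ATTGG and, independently of it, TTTGAA becomes TTCAAA. MKI67, KIF11, ESPL1, CENPF and CDC20 are shown because they followed the common course described below and hold CCAAT beside a TTTGAA or TTTAAA. BUB1, KIF20B and NCAPH are shown because they departed from it. In MKI67 the second TTTGAA and an ATTGG share 1 base. The stretches are chr10:128126424-128126553 (MKI67, minus strand), chr10:92593000-92593129 (KIF11, plus), chr12:53268169-53268298 (ESPL1, plus), chr1:214603065-214603194 (CENPF, plus), chr1:43358851-43358954 (CDC20, plus), chr2:110678115-110678193 (BUB1, minus), chr10:89701460-89701589 (KIF20B, plus) and chr2:96335636-96335765 (NCAPH, plus).
MKI67: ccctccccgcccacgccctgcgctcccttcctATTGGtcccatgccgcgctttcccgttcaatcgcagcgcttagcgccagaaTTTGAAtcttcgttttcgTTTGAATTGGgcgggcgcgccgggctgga
KIF11: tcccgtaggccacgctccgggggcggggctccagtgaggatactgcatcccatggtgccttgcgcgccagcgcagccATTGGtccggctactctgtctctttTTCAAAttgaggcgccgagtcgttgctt
ESPL1: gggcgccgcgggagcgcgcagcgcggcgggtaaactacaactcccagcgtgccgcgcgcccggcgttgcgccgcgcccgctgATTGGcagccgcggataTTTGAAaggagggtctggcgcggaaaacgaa
CENPF: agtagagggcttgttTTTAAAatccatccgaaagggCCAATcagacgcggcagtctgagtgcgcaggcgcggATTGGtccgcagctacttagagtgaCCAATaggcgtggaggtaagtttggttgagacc
CDC20: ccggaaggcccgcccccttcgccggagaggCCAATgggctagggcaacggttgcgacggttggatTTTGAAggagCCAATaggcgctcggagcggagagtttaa
BUB1: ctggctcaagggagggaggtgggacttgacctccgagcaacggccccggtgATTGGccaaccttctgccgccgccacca
KIF20B: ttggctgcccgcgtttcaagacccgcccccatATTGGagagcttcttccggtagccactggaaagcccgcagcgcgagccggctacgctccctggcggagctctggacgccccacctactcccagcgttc
NCAPH: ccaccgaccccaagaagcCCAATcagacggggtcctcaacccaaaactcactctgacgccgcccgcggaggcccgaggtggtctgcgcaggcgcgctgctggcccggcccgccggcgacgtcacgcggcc

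Within these stretches BUB1, KIF20B and NCAPH each held 1 whole CCAAT and no TTTGAA or TTTAAA. The windows of BUB1 and KIF20B hold another CCAAT, at -54 and -131, which the end of the printed stretch cuts. In the full windows of KIF20B and NCAPH those motifs lay after the start, TTTGAA at 25 and 31 in KIF20B and TTTAAA at 33 in NCAPH. The first 5 genes were picked for holding both kinds, so the contrast is fixed by that choice, and AURKB and CCNA2 followed the common course with neither motif in their windows.

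Libraries held between 27026196 and 39811230 counts. Levels below are CPM, counts scaled to a common library size with edgeR's TMM factors, which were 0.7534 to 0.7586 at day 15 and 1.032 to 1.172 on the other days. Scaling by library size alone lowers every day 15 value: it shifted the median log2 fold change of all genes by -0.52 between days 10 and 15 and by 0.62 between days 15 and 20. The labels were checked against cell type markers. The 12 T-cell markers summed to 3.18 to 4.09 CPM at day 10, 28.5 to 31.6 at day 15, 40.1 to 44.7 at day 20 and 16.2 to 18.9 at day 25. Of the 8 with enough reads to test, 6 were higher at day 25 than at day 10 and CD2 was lower. In that comparison 38.6% of all tested genes were called higher and 36.0% lower. Most of the day 25 sum was TRGC1 and TRGC2, constant regions of the γ chain, at means of 10.03 and 4.90 CPM. CD3E, of the T-cell receptor complex, was at 0.0946 to 0.288 CPM, and CD3D and CD3G were at 0. Defining markers of the labelled type were thus absent or near 0 at day 25, and groups are called by their day.

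All 50 members were highest at day 10 and fell by day 15. By day 20, 47 had risen part of the way back, and by day 25, 49 had fallen again. Together they summed to 7763 to 7881 CPM in the day 10 libraries, 1554 to 1569 at day 15, 2757 to 2811 at day 20 and 1752 to 1775 at day 25. No library of a day overlapped with another day in this sum. As a share of deposited counts, the 50 genes took 0.852% to 0.860% at day 10, 0.118% to 0.119% at day 15, 0.318% to 0.329% at day 20 and 0.183% to 0.185% at day 25. The summed level was 19.9% of its day 10 value at day 15, 35.6% at day 20 and 22.6% at day 25. In bulk RNA, fewer dividing cells and less of this RNA per cell cannot be told apart.

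Single members kept close to this course. Relative to day 10, the median member stood at 17.9% at day 15, between 4.90% for PBK and 49.6% for KIF20B. At day 20 the median was 35.1%, from 12.0% for UBE2C to 94.9% for ECT2, and at day 25 it was 21.1%, from 5.57% for UBE2C to 73.9% for ECT2. The order of days from highest to lowest was 10, 20, 25, 15 in 40 members. It was 10, 20, 15, 25 in 7 members, namely CDK1, NDC80, KIF14, KIF18A, HMMR, CDC20 and UBE2C. BUB1 and KIF20B stepped down on every day in turn with TMM scaling (with library-size scaling BUB1 was not called from day 15 to day 20 and KIF20B was higher), and NCAPH alone among the 50 members had day 25 in second place. All 50 differed among the 4 days (adjusted p under 0.05), as did 90.5% of all tested genes. The median coefficient of variation between libraries of a day was 4.40%, and the widest was 41.5% for PBK at day 15, where it had 151 counts over the 3 libraries.

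**Figure D1:**
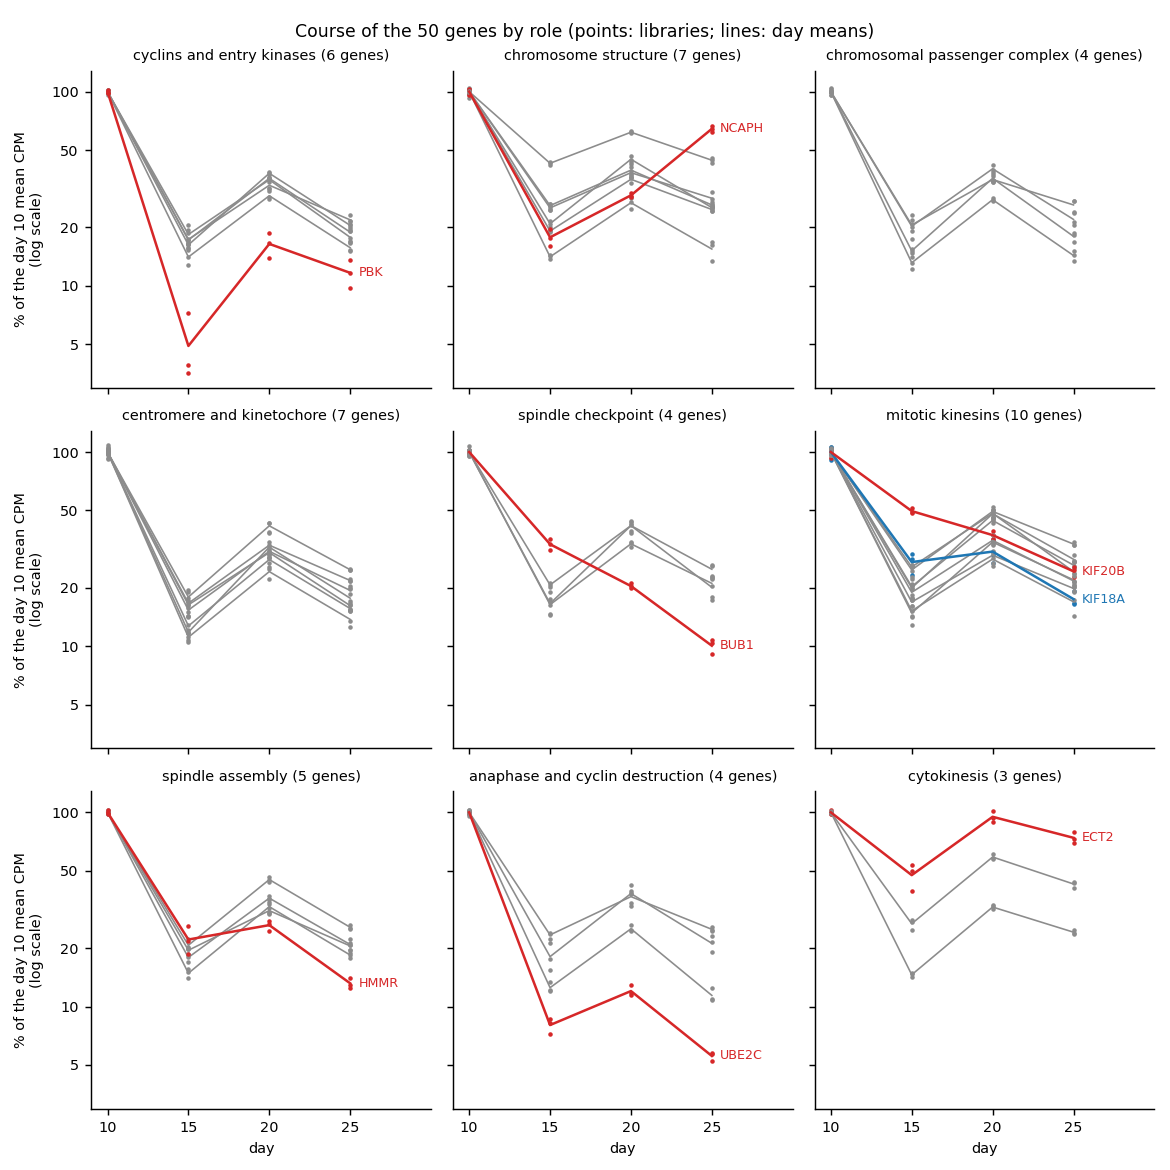
Mean level of each of the 50 genes at days 10, 15, 20 and 25, as a percent of its day 10 mean (log axis), in 9 panels by role. Each line is a gene (mean of 3 libraries); NCAPH, BUB1, KIF20B, HMMR, UBE2C, ECT2 and PBK are in red, and KIF18A is in blue. Most lines dip at day 15, to a median of 17.9%, recover to a median of 35.1% at day 20 and end at a median of 21.1%.

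Other cell types' markers moved over the same days. The 12 megakaryocyte markers summed to 7718 to 7959 CPM at day 10, 33240 to 33980 at day 15, 574 to 589 at day 20 and 194 to 201 at day 25, and all 12 rose between days 10 and 15. Myeloid markers went from 605 to 615 CPM at day 10 to 7364 to 7772 at day 15, 24242 to 24879 at day 20 and 16173 to 16539 at day 25. Eosinophil and mast cell markers were at 148 to 158, 9374 to 9942, 5847 to 6053 and 1166 to 1212 CPM on the same days. Stromal markers were highest at day 20 (6856 to 6971 CPM), and endothelial markers at day 15 (3470 to 3545 CPM). Erythroid markers fell from 515 to 548 CPM at day 10 and 810 to 840 at day 15 to 1.31 to 2.18 at day 25, with HBE1 and AHSP at 0. Immediate early genes, which respond within minutes to stimulation or handling, summed to 201 to 216 CPM at day 10, 1822 to 1911 at day 15, 2277 to 2342 at day 20 and 2097 to 2148 at day 25. All 11 were higher at day 15 than at day 10. For this rise, as for that of the 12 megakaryocyte markers, 42.4% of all tested genes were called higher. The part of any of these lists in the course of the mitotic genes was not tested.

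Between days 10 and 15 all 50 members fell, each by at least 2-fold, where 30.8% of all tested genes were called lower and 14.7% lower by at least 2-fold. The median log2 fold change of the members was -2.48, a 5.57-fold fall, against 0.20 for all tested genes. The smallest falls were those of the midbody kinesin KIF20B (log2 fold change -1.01) and the RhoA activator ECT2 (-1.07), and the largest was that of PBK (-4.34). No member's day 15 libraries overlapped with its day 10 libraries, and neither did those of 74.3% of all tested genes, in either direction. Among all called genes 57.9% were higher at day 15, and 39.2% with library-size scaling, under which all 50 members were also lower.

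Between days 15 and 20, 47 members rose and 2 fell, where 40.6% of tested genes were called higher and 36.0% lower. The median member rose by 1.00 on the log2 scale, 2.00-fold, against 0.10 for all tested genes. A rise of at least 2-fold was found in 25 members, against 23.7% of tested genes. PBK rose most (1.74 ± 0.19, SE, adjusted p = 2.7e-11), and KIF18A was not called (0.18 ± 0.11, adjusted p = 0.14). BUB1 and KIF20B were the members that fell. With library-size scaling BUB1 was not called and KIF20B was higher. Among all called genes 53.0% were higher at day 20, and 72.1% with library-size scaling, under which 49 members were higher and none lower.

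Between days 20 and 25, 49 members fell and NCAPH rose, where 25.1% of tested genes were called lower and 24.5% higher. The median log2 fold change was -0.77, against -0.03 for all tested genes. Falls of at least 2-fold were limited to CDC20, UBE2C, MAD2L1 and BUB1, where 6.86% of tested genes were called lower by that much. No member's day 25 libraries overlapped with its day 20 libraries, and neither did those of 57.0% of all tested genes, in either direction. Among all called genes 49.4% were higher at day 25, and 31.4% with library-size scaling, with the members' counts as before.

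Against day 10, 49 members were lower at day 20 (34.2% of tested genes were called lower) with a median of -1.51, and 47 of them by at least 2-fold (11.8% of tested genes). ECT2 was the member not called (-0.075 ± 0.079, adjusted p = 0.4), and NCAPD2 (-0.69) and ANLN (-0.76) fell by less than 2-fold. At day 25 all 50 were lower than at day 10 (36.0% of tested genes), with a median of -2.25 and 48 by at least 2-fold (16.5%). NCAPH (-0.64) and ECT2 (-0.43) were the exceptions. These comparisons share libraries with the ones above.

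**Figure D2:**
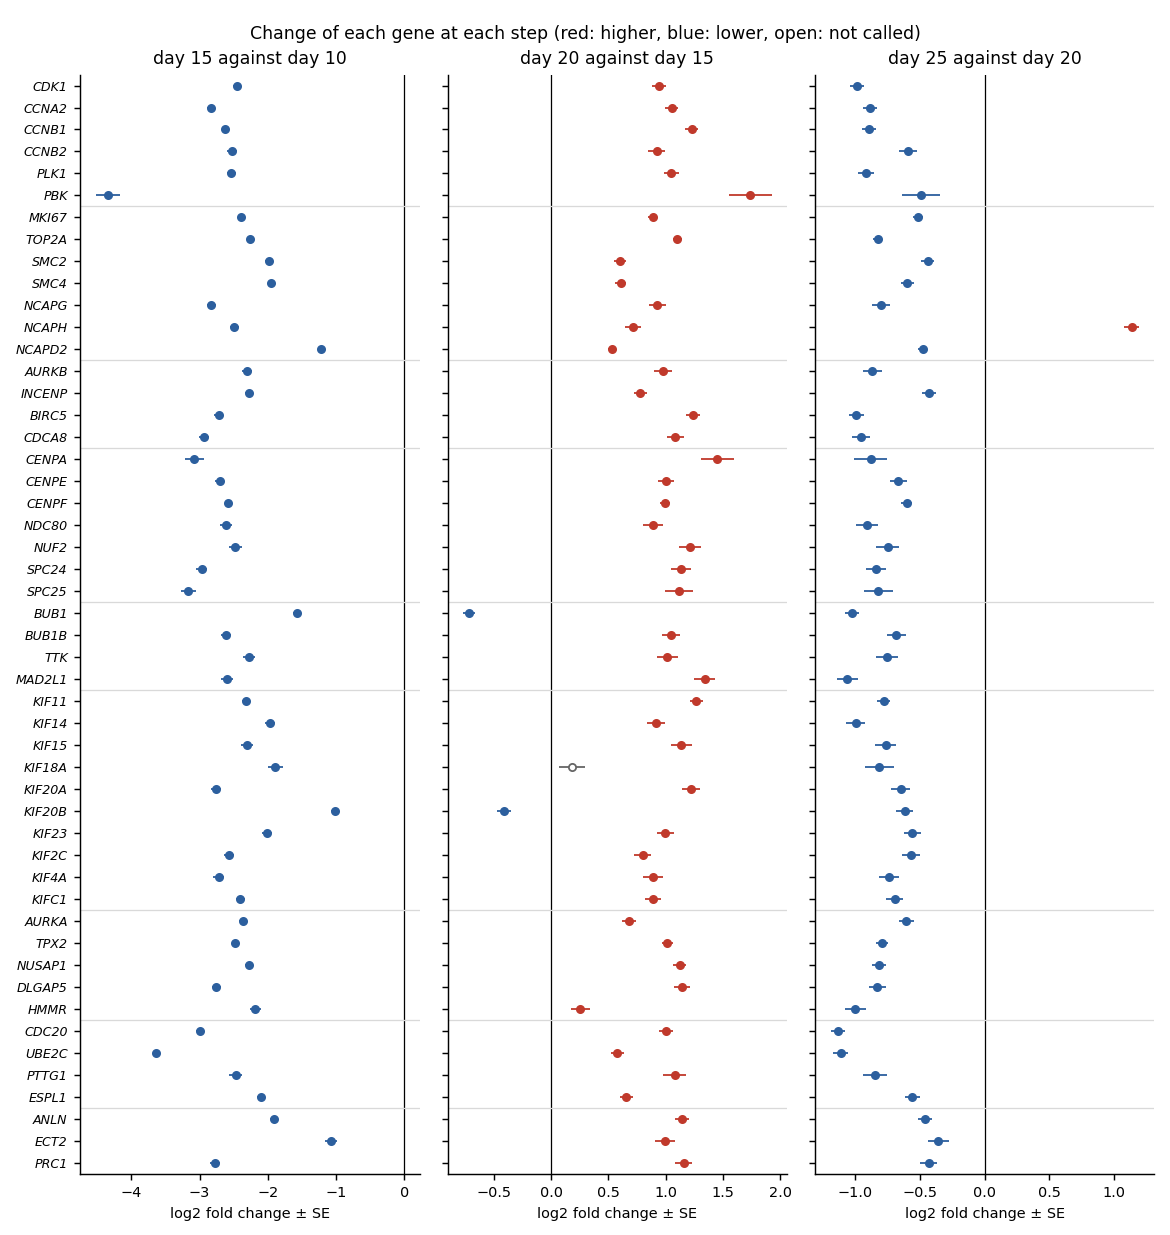
Log2 fold change of each of the 50 genes, with its SE as a bar, between days 10 and 15, 15 and 20, and 20 and 25. Red points were called higher, blue lower and open points were not called (adjusted p under 0.05). All 50 lie below 0 at the first step, 47 are red at the second, and 49 are blue at the third, with NCAPH on the other side.

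By role, the medians of the 9 groups lay close together. To day 15 they ran from -2.73 for anaphase and cyclin destruction to -1.91 for cytokinesis, to day 20 from 0.72 for chromosome structure to 1.14 for cytokinesis, and to day 25 from -0.98 for anaphase to -0.43 for cytokinesis. Chromosome structure genes summed to the most of any group on each day, 2353 to 2448 CPM at day 10, 553 to 569 at day 15, 955 to 1007 at day 20 and 699.98 to 705 at day 25. The spindle checkpoint group summed to less at day 25 (70.7 to 85.2 CPM) than at day 15 (124 to 136 CPM). In it BUB1 went from a mean of 88.8 to 26.7 CPM. BUB1B (16.8 to 21.6), TTK (10.9 to 13.1) and MAD2L1 (15.5 to 18.8) were higher at day 25. The anaphase group also summed to less with TMM scaling, by a narrow margin (94.1 to 100.3 against 100.4 to 107.7 CPM). As a share of deposited counts the anaphase group was higher at day 25 (0.00979% to 0.0104%) than at day 15 (0.00759% to 0.00811%). The mean sum of each of the other 7 groups was higher at day 25 than at day 15.

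The entry kinases and cyclins followed the common course. CCNA2, the A-type cyclin that peaks before mitosis, was at 211, 211 and 212 CPM on day 10, 29.8, 32.5 and 26.97 on day 15, 59.03, 64.8 and 60.8 on day 20, and 32.00, 35.6 and 32.2 on day 25. Each day stood apart except days 15 and 25, whose libraries overlapped. CCNA2 overlaps EXOSC9 on the opposite strand (means of 68.0, 30.9, 32.9 and 23.3 CPM at days 10, 15, 20 and 25), so its level is uncertain. Its log2 fold change was -2.83 ± 0.057 (SE) to day 15, 1.05 ± 0.060 to day 20 and -0.89 ± 0.056 to day 25, with adjusted p no larger than 1.1e-17. CDK1, the kinase that drives entry, was at 202, 201 and 199 CPM on day 10, 34.7, 41.3 and 34.6 on day 15, 71.04, 68.96 and 71.7 on day 20, and 38.2, 33.4 and 35.3 on day 25. Its day 25 and day 15 libraries overlapped and the difference between them was not called (-0.048, adjusted p = 0.47). CCNB1 and CCNB2, the B-type cyclins, and PLK1, a kinase of centrosome maturation and spindle assembly, changed by -2.62, -2.52 and -2.53 to day 15. They recovered by 1.23, 0.92 and 1.05 to day 20.

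PBK, a mitotic kinase, had the largest fall of any member to day 15. It was at 43.8, 45.4 and 43.7 CPM on day 10, 3.21, 1.74 and 1.57 on day 15, 8.27, 6.19 and 7.38 on day 20, and 5.99, 5.18 and 4.32 on day 25. Day 10 stood far above the rest, and no day overlapped with another, although day 15 replicate 1 lay well above the other libraries of that day. The log2 fold change to day 15 was -4.34 ± 0.18 (SE, adjusted p = 6e-25). From day 20 to day 25 the change was -0.49 ± 0.14 (adjusted p = 0.0042).

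Among the genes of chromosome structure, NCAPH took a course of its own. NCAPH (chr2:96335787-96373845, plus strand, GENCODE release 29 on GRCh38) encodes the kleisin that closes the condensin I ring. It was at 111, 116 and 119 CPM on day 10, 22.7, 18.5 and 20.3 on day 15, 33.1, 34.7 and 33.5 on day 20, and 76.4, 71.9 and 74.5 on day 25. The day 25 libraries lay above every library of days 15 and 20 and below those of day 10. Its log2 fold change was -2.49 ± 0.063 (SE) to day 15 and 0.72 ± 0.067 to day 20. To day 25 it rose by 1.14 ± 0.057 (adjusted p = 5.4e-21), and under library-size scaling it was again the member called higher. No other annotated gene overlaps NCAPH.

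The other condensin subunits did not share that rise. SMC2 and SMC4 form the ATPase core common to both condensins, and NCAPG and NCAPD2 are the remaining subunits of condensin I. From day 20 to day 25 SMC2 changed by -0.44, SMC4 by -0.60, NCAPG by -0.80 and NCAPD2 by -0.48, all called lower. Per kb of exon, NCAPH was at 22.7 CPM at day 25, NCAPD2 at 20.7, SMC2 at 8.27, SMC4 at 7.08 and NCAPG at 4.33. All 3 genes specific to condensin II, NCAPD3 (-0.48), NCAPG2 (-0.50) and NCAPH2 (-0.29), also fell at that step, where 25.1% of tested genes were called lower.

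TOP2A, the topoisomerase that untangles sister DNA, was at 606, 608 and 591 CPM on day 10, 130.2, 121 and 126 on day 15, 261, 269 and 280.1 on day 20, and 153, 149.7 and 154 on day 25. No day overlapped with another. It had the highest level per kb of its group over the course and, at 23.6 CPM per kb, of all 50 members at day 25. MKI67, whose product coats mitotic chromosomes and keeps them apart, rose by 0.89 ± 0.039 (SE) between days 15 and 20 and fell by less to day 25 (-0.52). SMC4 lies among the genes IFT80 and TRIM59, NCAPD2 beside MRPL51 and NCAPG beside LCORL. Since the strand setting of the count is not known, reads of these overlapping genes may be mixed, as they may for other members that share positions with a neighbour.

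**Figure D3:**
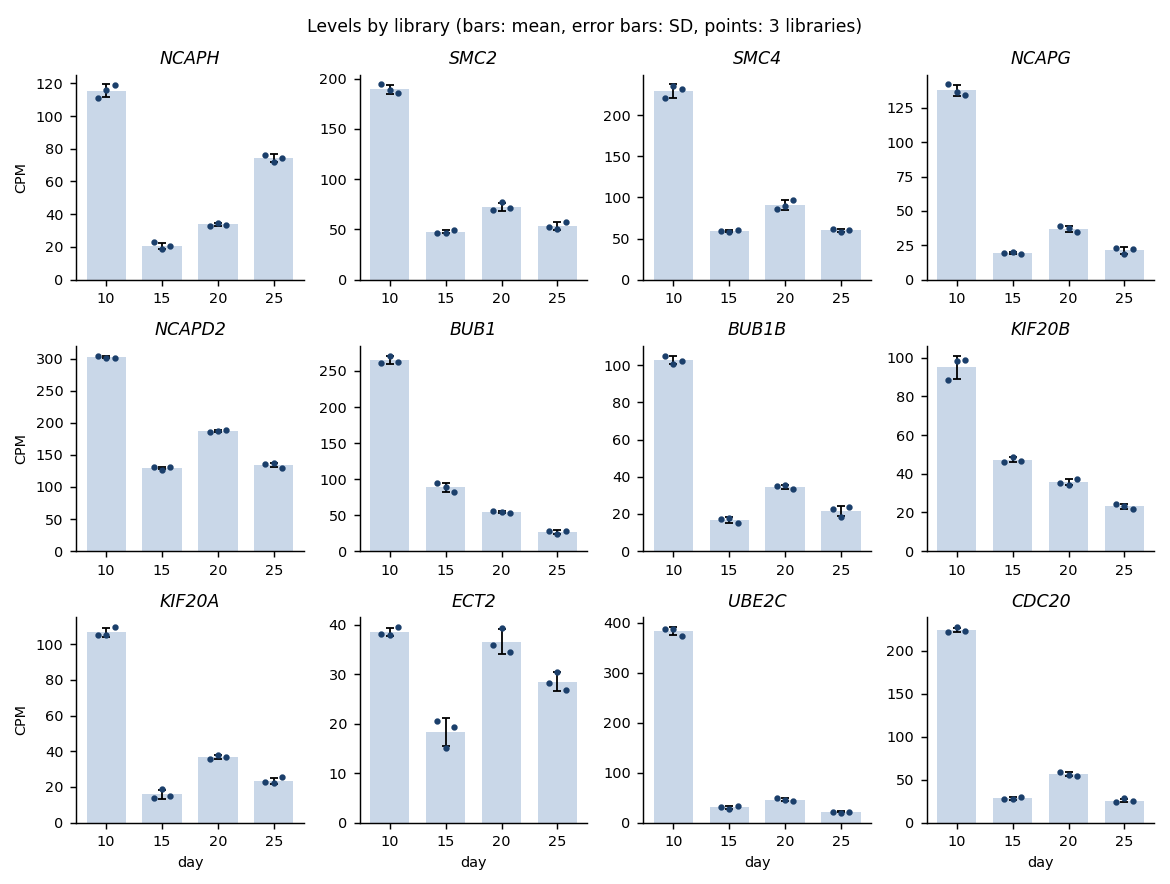
TMM-scaled CPM of 12 genes in each of the 12 libraries by day, with bars for the mean of 3 libraries, error bars for the SD and points for libraries. NCAPH is at 71.9 to 76.4 CPM at day 25, above its day 20 libraries, while SMC2, SMC4, NCAPG and NCAPD2 fall. With this scaling BUB1 and KIF20B step down on each day, and their relatives BUB1B and KIF20A dip at day 15 and recover. By library size alone, the change of BUB1 from day 15 to day 20 was not called and KIF20B was higher.

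The chromosomal passenger complex corrects faulty attachments and then moves to the midzone. Its kinase AURKB was at 91.9, 92.7 and 91.4 CPM on day 10, 16.1, 18.6 and 21.3 on day 15, 38.7, 35.5 and 36.4 on day 20, and 18.9, 19.7 and 22.1 on day 25. Days 15 and 25 overlapped, and days 10 and 20 stood above them. AURKB changed by -2.30 ± 0.076 (SE), 0.98 ± 0.078 and -0.87 ± 0.074 at the 3 steps. The scaffold INCENP, survivin (BIRC5) and borealin (CDCA8) kept to the same directions, with changes of -2.28, -2.72 and -2.93 to day 15. By day 20 BIRC5 had risen most of the 4 (1.24) and INCENP least (0.78).

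Kinetochore genes were among those that fell most. The 7 members of this group had a median log2 fold change of -2.70 to day 15, 1.12 to day 20 and -0.82 to day 25. All 7 were called at each step, lower, higher and lower in turn. Of all tested genes, 30.8%, 40.6% and 25.1% were called in those directions. CENPF, a large protein of the outer kinetochore, was at 337, 334 and 343 CPM on day 10, 55.02, 56.2 and 57.5 on day 15, 107, 116 and 113 on day 20, and 72.8, 74.8 and 73.3 on day 25. No day overlapped with another. NDC80, which with NUF2, SPC24 and SPC25 forms the complex that binds microtubules, was at 66.7, 64.2 and 62.8 CPM on day 10, 10.5, 10.2 and 10.97 on day 15, 19.98, 18.97 and 19.8 on day 20, and 10.8, 10.1 and 10.5 on day 25. Days 15 and 25 overlapped, and days 10 and 20 stood above both. CENPA, the histone variant that marks centromeres, was the lowest of the group at day 15 with 3.96 ± 0.359 CPM (SD, n = 3) and changed by -3.08, 1.45 and -0.88. CENPA shares its strand and part of its span with SLC35F6, so its level is uncertain.

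In the spindle checkpoint, BUB1 parted from its partners. BUB1 (chr2:110637698-110678114, minus strand) encodes a kinase that marks centromeric chromatin and recruits other checkpoint proteins. It was at 261, 271 and 263 CPM on day 10, 94.7, 89.2 and 82.4 on day 15, 55.7, 53.8 and 52.7 on day 20, and 27.4, 24.04 and 28.6 on day 25. Each day lay below the one before, with no overlap. The log2 fold change was -1.58 ± 0.049 (SE) to day 15, -0.72 ± 0.052 to day 20 (adjusted p = 4.8e-16) and -1.03 ± 0.056 to day 25. With library-size scaling the change from day 15 to day 20 was -0.094 and was not called (adjusted p = 0.092).

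The partners BUB1B, TTK and MAD2L1 rose at the step where BUB1 fell with TMM scaling. BUB1B, encoding BubR1 of the inhibitory checkpoint complex, changed by 1.04 ± 0.080 (SE) from day 15 to day 20. TTK, the kinase that starts checkpoint signalling, changed by 1.01 ± 0.091, and MAD2L1, the protein that captures CDC20, by 1.34 ± 0.088, the third largest rise of the 50 members after PBK and CENPA. At day 15 BUB1 was at 33.5% of its day 10 mean, against 16.4% for BUB1B, 20.7% for TTK and 16.6% for MAD2L1. By day 25 it was at 10.1%, below the other 3. No other annotated gene overlaps BUB1.

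Of the 10 mitotic kinesins, 8 fell, rose and fell, all called. Of all tested genes, 30.8% were called lower at the first step, 40.6% higher at the second and 25.1% lower at the last. KIFC1, a motor that walks to the minus end and focuses spindle poles, had the highest level per kb of the group and was at 134, 125 and 122 CPM on day 10, 26.3, 23.3 and 22.6 on day 15, 42.6, 43.5 and 47.6 on day 20, and 29.3, 26.1 and 27.2 on day 25. Days 15 and 25 overlapped, and day 20 lay between them and day 10. KIF11, which slides antiparallel microtubules to part the poles, rose most to day 20 (1.27 ± 0.055, SE). KIF14, a motor of late cytokinesis, was at 74.9, 74.9 and 74.7 CPM on day 10, 18.2, 19.7 and 19.6 on day 15, 34.5, 37.7 and 36.3 on day 20, and 16.1, 17.6 and 20.7 on day 25. Its day 15 and day 25 libraries overlapped (-0.081, adjusted p = 0.36).

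KIF20B (chr10:89701610-89774939, plus strand), a kinesin of the midbody, stepped down on each day with TMM scaling. It was at 88.3, 98.2 and 98.9 CPM on day 10, 46.3, 48.8 and 46.6 on day 15, 35.4, 34.1 and 37.1 on day 20, and 24.2, 23.5 and 21.6 on day 25. No day overlapped with another. Its log2 fold change was -1.01 ± 0.060 (SE) to day 15, the smallest fall of the 50 members, then -0.41 ± 0.063 (adjusted p = 1.7e-07) and -0.62 ± 0.065. With library-size scaling the change from day 15 to day 20 turned to 0.21 (adjusted p = 0.0024), so its direction at that step depends on the scaling. KIF20A, a related motor that carries passenger proteins to the midzone, went the other way at that step under TMM scaling, by 1.22 ± 0.079. KIF20A overlaps BRD8 and CDC23, and its values are uncertain for that reason.

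KIF18A, which damps the swings of aligned chromosomes, was at 38.1, 43.3 and 44.9 CPM on day 10, 11.8, 12.6 and 9.85 on day 15, 15.1, 12.4 and 11.3 on day 20, and 8.07, 7.02 and 6.98 on day 25. Days 15 and 20 overlapped, day 10 lay above them and day 25 below. The change from day 15 to day 20 was 0.18 ± 0.11 (adjusted p = 0.14). It became a called rise with library-size scaling, without the filter on low counts, and without day 20 replicate 3. KIF18A overlaps METTL15 on the opposite strand, which had a mean of 20.5 CPM at day 15 and 11.3 at day 20, so the level of KIF18A and this change are uncertain.

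Among spindle assembly factors, TPX2, which activates Aurora A on the spindle, was at 268, 269 and 272 CPM on day 10, 50.2, 46.02 and 48.7 on day 15, 99.6, 96.6 and 96.5 on day 20, and 52.5, 55.97 and 60.4 on day 25. The 4 days did not overlap. The kinase gene AURKA, and NUSAP1 and DLGAP5, whose products bundle or stabilise spindle microtubules, changed by 0.68, 1.12 and 1.14 from day 15 to day 20. HMMR, a spindle and hyaluronan-binding protein, was at 98.3, 93.7 and 95.5 CPM on day 10, 17.97, 24.8 and 20.8 on day 15, 23.4, 26.5 and 25.5 on day 20, and 13.5, 11.98 and 12.4 on day 25. Days 15 and 20 overlapped, and the day 25 libraries were the lowest. Its change to day 20 was 0.25 ± 0.083 (SE, adjusted p = 0.0058) and was lost without day 15 replicate 1 (0.15, adjusted p = 0.11).

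The 4 genes of anaphase and cyclin destruction had a median log2 fold change of -2.73 to day 15, 0.83 to day 20 and -0.98 to day 25. UBE2C (chr20:45812576-45816957, plus strand), the ubiquitin-conjugating enzyme of the anaphase-promoting complex, was at 388, 387 and 374 CPM on day 10, 31.6, 27.8 and 32.9 on day 15, 49.2, 45.1 and 43.7 on day 20, and 21.8, 20.1 and 22.02 on day 25. Every day stood apart from the others. It had been the most abundant member per kb at day 10, at 298 CPM, and at day 25, at 16.6 CPM, it stood below TOP2A, NCAPH and NCAPD2. The log2 fold change from day 10 to day 25 was -4.17 ± 0.053 (SE, adjusted p = 1.4e-43), the largest of the 50 members. It recovered by only 0.58 to day 20, against a median of 1.00.

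CDC20, the activator that the checkpoint holds back, was at 222, 227 and 222 CPM on day 10, 27.1, 26.8 and 30.1 on day 15, 58.7, 55.5 and 54.6 on day 20, and 24.1, 27.97 and 24.6 on day 25. Days 15 and 25 overlapped, and day 20 lay above both. Its change from day 20 to day 25 was -1.13 ± 0.057 (SE, adjusted p = 3.5e-21), the largest fall of any member at that step. PTTG1, encoding securin, and ESPL1, encoding the separase it restrains, changed by -2.47 and -2.10 to day 15, then by 1.08 and 0.66 to day 20. The PTTG1 copy PTTG2 held at most 7 counts per day, and the KIF4A copy KIF4B at most 49.

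The 3 cytokinesis genes had a median log2 fold change of -1.91 to day 15, 1.14 to day 20 and -0.43 to day 25. ECT2 (chr3:172750682-172821474, plus strand), which activates RhoA at the cell equator, was at 38.2, 37.9 and 39.5 CPM on day 10, 20.6, 15.1 and 19.3 on day 15, 35.9, 39.3 and 34.5 on day 20, and 28.2, 30.5 and 26.8 on day 25. Its day 20 libraries overlapped with those of day 10, and the day 15 libraries were the lowest. It changed by -1.07 ± 0.086 (SE), 0.99 ± 0.086 and -0.36 ± 0.080 at the 3 steps (adjusted p = 0.00021 for the last). ANLN, the scaffold anillin of the contractile ring, was at 112, 116 and 116 CPM on day 10, 28.5, 32.1 and 31.2 on day 15, 66.97, 69.7 and 65.5 on day 20, and 50.4, 49.7 and 46.7 on day 25. No day overlapped with another. ANLN overlaps MATCAP2 on the opposite strand, at means of 1.08 CPM at day 15 and 7.81 at day 20. PRC1, which bundles the central spindle, fell further, by -2.78 to day 15, and was at 24.1% of its day 10 level at day 25, against 42.8% for ANLN and 73.9% for ECT2.

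Whether the members ended above or below their day 15 level varied more with the processing. Between days 15 and 25, 32 members were higher, 5 were lower and 13 were not called, where 40.2% of tested genes were called higher and 37.8% lower. The median log2 fold change was 0.25, against 0.06 for all tested genes. The 5 lower members were BUB1 (-1.74), KIF20B (-1.03), HMMR (-0.75), KIF18A (-0.63) and UBE2C (-0.54). NCAPH (1.85), PBK (1.24), PRC1 (0.73), ANLN (0.68) and ECT2 (0.63) led the rises. With library-size scaling 45 members were higher and 3 lower, and among all called genes the share that was higher went from 51.6% to 66.6%.

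Regulators of this gene set did not all follow it. Of 17 in the list, 11 fell and 5 rose to day 15 (MYBL2, E2F1, E2F3, LIN37 and LIN54). At that step 30.8% of tested genes were called lower and 42.4% higher. With library-size scaling 2 regulators rose and 14 fell. FOXM1, the factor that drives late cell cycle promoters, was at 121, 129 and 125 CPM on day 10, 25.2, 22.00 and 22.99 on day 15, 54.7, 50.2 and 51.4 on day 20, and 32.00, 30.04 and 31.6 on day 25. That is the course of the members, with changes of -2.42 ± 0.061 (SE), 1.15 ± 0.063 and -0.74 ± 0.058 at the 3 steps. MYBL2, the MYB protein of the MYB-MuvB complex, was at 200.2, 188 and 191 CPM on day 10, 236, 240.3 and 241 on day 15, 77.9, 77.8 and 75.5 on day 20, and 44.7, 46.5 and 49.2 on day 25. Its libraries at day 15 were above those of day 10, and those of days 20 and 25 below both. MYBL2 changed by 0.31 ± 0.040 (SE) to day 15 (adjusted p = 4.4e-09), but by -0.22 with library-size scaling (adjusted p = 3.6e-06). To day 20 it fell by 1.63 on the log2 scale.

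E2F1 and E2F3, activators of genes for the start of DNA replication, were highest at day 15, when the members were lowest. E2F1 was at 83.5, 85.5 and 84.8 CPM on day 10, 186, 190.5 and 192 on day 15, 30.4, 31.04 and 29.5 on day 20, and 18.7, 22.4 and 21.4 on day 25. E2F3 was at 99.9, 105 and 101 CPM on day 10, 508, 483 and 486 on day 15, 56.7, 53.8 and 52.95 on day 20, and 51.7, 43.5 and 48.4 on day 25. For both genes the day 15 libraries lay above all others. E2F3 changed by 2.27 ± 0.043 (SE) to day 15 and -3.18 ± 0.045 to day 20, and E2F1 by 1.16 ± 0.049 and -2.65 ± 0.053. RB1 and RBL2, pocket proteins that restrain E2F, stayed within a narrow range, RB1 between means of 103 and 119 CPM and RBL2 between 78.1 and 88.2 CPM. Their small changes took different calls under different scalings.

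**Figure D4:**
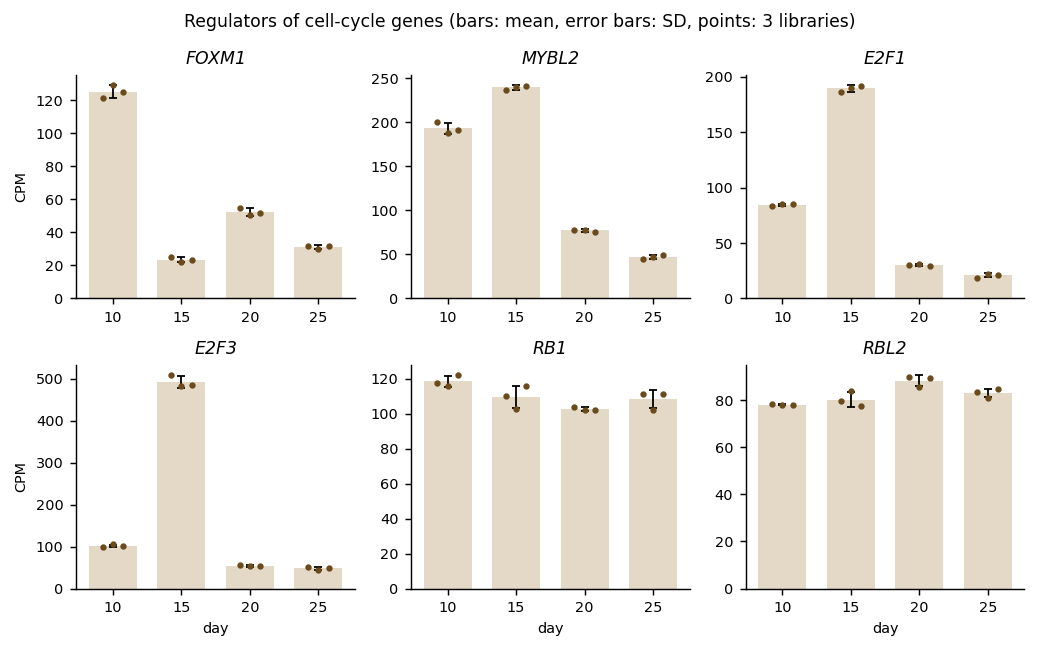
TMM-scaled CPM of FOXM1, MYBL2, E2F1, E2F3, RB1 and RBL2 by day, with bars for the mean of 3 libraries, error bars for the SD and points for libraries. FOXM1 dips at day 15, whereas E2F1 (186 to 192 CPM) and E2F3 (483 to 508 CPM) peak there.

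Beyond the 50 members, 160 further genes of mitosis, replication and transport on microtubules were read from lists, chosen by role. Of the 121 in lists of mitosis, 14 were higher and 100 lower at day 15 than at day 10, with a median log2 fold change of -1.37. At day 20, 74 of them were higher and 30 lower than at day 15 (median 0.44), and at day 25, 2 were higher and 93 lower than at day 20 (median -0.41), the 2 being ARPP19 and ESCO1, named after their values were seen. Of all tested genes, 42.4% were called higher and 30.8% lower to day 15. The shares were 40.6% and 36.0% to day 20, and 24.5% and 25.1% to day 25. With library-size scaling the counts of the 121 genes at these steps were 9 and 110, 102 and 15, and 0 and 107.

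The lists differed in size of change. All 18 other spindle and midbody genes fell to day 15 (30.8% of tested genes were called lower), with a median of -2.22. To day 20, 16 rose (40.6% of tested genes were called higher). CKAP2L, a spindle protein, fell most of the 18 (-3.21). TACC3, which crosslinks spindle microtubules and was named after its values were seen, fell least (-0.43) and went on falling to day 20 (-0.73, and by 0.11 with library-size scaling, adjusted p = 0.022). Of 28 further kinetochore genes, 26 fell and 2 rose to day 15 (median -1.72), where 30.8% of tested genes were called lower and 42.4% higher. The outer subunits SKA1 (-2.80) and ZWINT (-2.78) were among those that fell. The 2 that rose, named after their values were seen, were CENPT, an inner subunit that binds DNA, and MIS12, of the platform between centromere and NDC80. CENPT went from 72.9 ± 4.48 CPM (SD, n = 3) at day 10 to 166 ± 9.20 CPM (SD, n = 3) at day 15 (1.19). MIS12 changed by 0.19, and by -0.34 with library-size scaling, where it was called lower.

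Among the 12 kinases and phosphatases of the entry switch, all fell to day 15 (median -2.13). At that step 30.8% of tested genes were called lower and 42.4% higher. CDC25A, the phosphatase that activates CDKs, changed by -3.15 and PLK4, the kinase that starts centriole copying, by -2.79. WEE1, which inhibits CDK1, fell by only 0.13 at that step and kept falling, to 22.7 ± 2.51 CPM (SD, n = 3) at day 25; it too was named after its values were seen. Centriole genes as a list moved less, with 9 of 11 lower to day 15, PCNT and CEP135 higher (named after their values were seen), and a median of -0.74. STIL, a centriole assembly factor, changed by -1.90 at that step, and SASS6, which forms the cartwheel, by -1.80.

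Cohesin and its regulators, 15 genes, had a median of -0.35 to day 15. Of them 9 were lower and 3 higher, where 30.8% of tested genes were called lower and 42.4% higher. The 3, named after their values were seen, were the loader subunits NIPBL (0.70) and MAU2 (0.90) and the ring subunit STAG2 (0.49), of which STAG2 was at -0.048 and not called with library-size scaling. ESCO2 (-2.58), which acetylates cohesin in S phase, and SGO1 (-2.32), which protects it at centromeres, fell most. From day 15 to day 20 the cohesin list had 6 higher and 8 lower (median -0.30), where 40.6% of tested genes were called higher and 36.0% lower. With library-size scaling it had 11 higher and 3 lower, where 11719 of 20183 tested genes were called higher and 4530 lower. The anaphase-promoting complex list, 17 genes, had 12 lower and 2 higher to day 15 (median -0.56), the 2 being CDC16, a scaffold subunit, and FZR1, the activator that takes over from CDC20 (named after their values were seen). In it the inhibitor FBXO5 (-2.39) and the chain-extending enzyme UBE2S (-2.33) fell most.

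A pair of lists served for comparison. The 20 genes of replication licensing and the fork all fell to day 15 (median -2.21), where 30.8% of tested genes were called lower. To day 20, 18 rose (0.85), where 40.6% were called higher, and all 20 fell to day 25 (-0.83), where 25.1% were called lower. MCM10, a fork factor, was not called between days 15 and 20 (-0.016, adjusted p = 0.84), and was called higher there with library-size scaling. The 19 transport kinesins, which carry cargo in cells whether or not they divide, had 7 higher and 8 lower to day 15 (median -0.15), where 42.4% of tested genes were called higher. With library-size scaling 3 were higher and 13 lower (median -0.68). From day 15 to day 20, 12 of these kinesins were higher and 5 lower (median 0.76), where 40.6% of tested genes were called higher and 36.0% lower. By library size alone 16 of the kinesins were higher and 2 lower (median 1.38), where 11719 of 20183 tested genes were called higher and 4530 lower. From day 20 to day 25, 11 of them were higher and none lower, where 24.5% of tested genes were called higher and 25.1% lower. By library size alone 7 were higher and 2 lower (median 0.03), where 3414 of 20183 tested genes were called higher and 7445 lower. Against day 10, 16 were higher at day 25 and 3 lower (median 1.12), where 38.6% of tested genes were called higher, with the same counts by library size (median 1.05). KIF1A was at 0.848 CPM at day 10 and 19.2 at day 25, and KIF21A at 2.93 and 21.5. The difference between these kinesins and the mitotic ones was not tested.

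**Figure D5:**
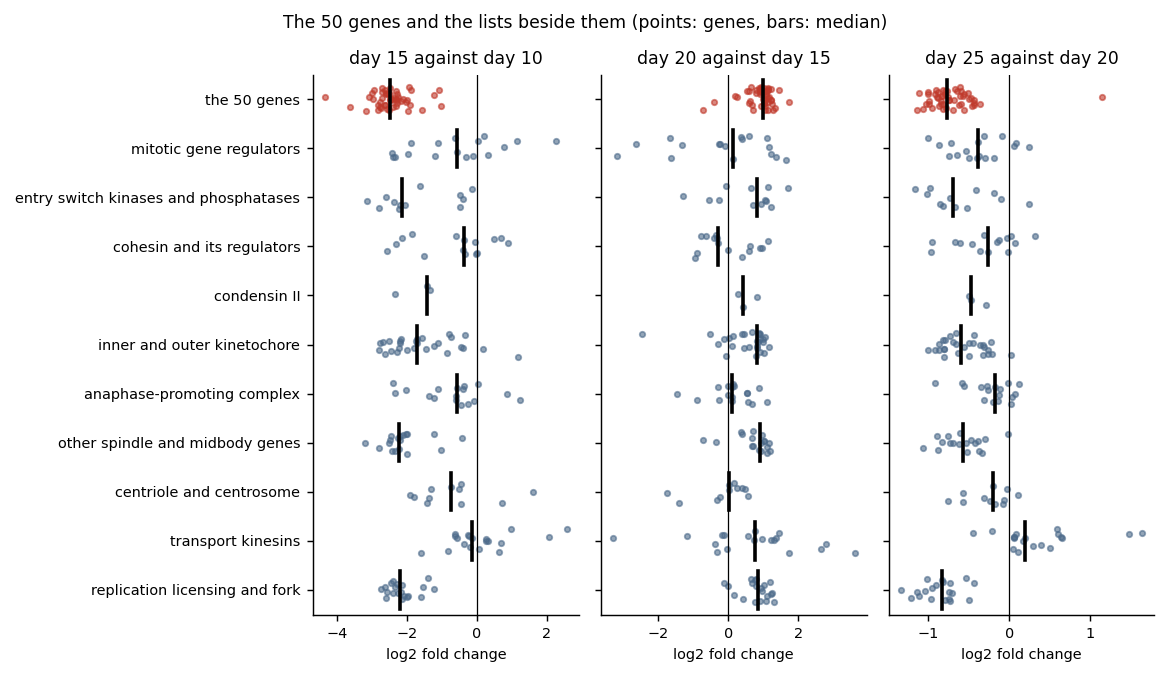
Log2 fold changes between days 10 and 15, 15 and 20, and 20 and 25 for the 50 mitosis genes and 10 further lists, with a point per gene and a bar for each list's median. The 50 genes have medians of -2.48, 1.00 and -0.77, close to those of the replication list (-2.21, 0.85 and -0.83). The transport kinesins have -0.15, 0.76 and 0.20, nearest to the others at the second step.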

How the data were processed

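Total RNA was turned into LM-Seq (ligation-mediated) libraries and read as single reads on an Illumina NovaSeq, per the labels' protocols. The authors deposited 1 table of raw counts, per the file headers, with a row per gene and a column per library. Per the submitters' processing notes the build was GRCh38, with aligner, counter, annotation and strand setting not given in the sources used here. No library was left out, and each library had more genes at 2 counts than at 1, so counts need not be independent fragments. Libraries of a day differed by a chi-square of 3.492 to 5.164 per degree of freedom, and each was counted as 1 sample; reads counted more than once would raise this value too.

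Members were matched through a table of gene names, which gave symbols for 25321 IDs; the 11280 without one held 0.441% of counts and stayed in. Of the listed pathway genes, 160 of 161 were matched. The filter was filterByExpr of edgeR 4.0.16 (R 4.3.3) with a minimum count of 10. After TMM scaling, 1 robust glmQLFit covered all 12 libraries (common BCV, the spread between replicates, 6.03%). Pairs of days were compared by quasi-likelihood F tests, and calls are at a Benjamini-Hochberg adjusted p under 0.05 over all 20183 tested genes. Levels per kb use exon lengths from GENCODE release 29. The fit was also run on simulated data, in which a small part of the genes changed, as many up as down. That setting differs from these data and cannot speak to the choice of scaling at day 15. Figures used matplotlib 3.10.9.

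The members and lists were chosen with earlier results of these data known. Full values are given for the most abundant member of each role, the largest rise and fall of each comparison, and members that went against most others. ECT2 met none of these rules and was also given in full, after its values were seen. From each pathway list up to 2 genes with the largest called change are named, and FOXM1, MYBL2, RB1 and RBL2 whatever their values. Other settings tried were library-size scaling, DESeq2 size factors, DESeq2 1.42.0 itself, no filter, a stricter filter (1 CPM and 10 counts in 3 libraries), removal of mitochondrial, ribosomal protein and haemoglobin genes, a replicate block, fits to the compared days alone, a 2-fold minimum, and leaving out each library.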

Additional observations from a re-analysis of the deposited data

How the results depend on the processing

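The counts of members called kept within 1.5 times under every alternative run, with these exceptions. With library-size scaling no member was lower from day 15 to day 20, and 3 were lower from day 15 to day 25. That scaling moved the summed level of the members to 13.8% of day 10 at day 15, 37.9% at day 20 and 21.4% at day 25, and DESeq2 size factors moved it to 35.1% at day 20. A 2-fold minimum left 25 calls from day 15 to day 20 (25 higher and 0 lower), 5 from day 20 to day 25 (4 lower) and 4 from day 15 to day 25 (2 higher and 2 lower), since it asks for a larger change. With library-size scaling the log2 fold change turned to 0.21 for KIF20B from day 15 to day 20, and from day 15 to day 25 to 0.33 for CDC20, 0.38 for KIF14, 0.41 for CDK1 and 0.44 for NDC80. Without the filter it turned to 0.16 for CDK1 from day 15 to day 25. Of these genes KIF20B was called before, and the other 4 were not. That scaling leaves out the TMM factors, which set day 15 apart from the other days. Leaving out each library in turn gave 48 to 50 calls from day 15 to day 20 (46 to 48 higher, 2 lower) and 35 to 38 from day 15 to day 25 (30 to 32 higher, 5 to 6 lower), with no change at the other comparisons. The members' median log2 fold change ranged over all alternatives from -3.01 to -2.44 between days 10 and 15, 0.97 to 1.62 between days 15 and 20, -0.94 to -0.74 between days 20 and 25 and 0.23 to 0.71 between days 15 and 25. Libraries share only a replicate number: the 18 same-numbered pairs correlated at -0.0164 to 0.0156, and 4 of 12 libraries correlated best with their own number. With the replicate block 31 members were higher from day 15 to day 25 and 36 were called, the call of PTTG1 being lost, and the other counts were as without it. Depth limits PBK most, with 151 counts at day 15.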
